A study of Mus musculus with 10 samples.

Results

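Of the 10 polarity genes studied in the mouse uterus, *Crb3* was upregulated and *Prickle1* was downregulated in the HSD17B1TG mice compared to the WT mice in edgeR's test. The genes were chosen by symbol, with earlier results of these data known, as core genes of planar polarity (*Celsr1*, *Celsr2*, *Vangl1*, *Vangl2* and *Prickle1*) and as genes of the Scribble, Par and Crumbs modules of apicobasal polarity (*Scrib*, *Llgl1*, *Llgl2*, *Pard3* and *Crb3*). They are 10 of the 29268 genes in the count table, and 10 of 10 were among the 16993 genes that passed the filter on low counts and were tested. RNA-seq was carried out on whole uterus of 5 HSD17B1TG and 5 WT females aged 4 months, and each mouse gave 1 library. The HSD17B1TG mice are FVB/N mice of a heterozygous line that carries a human *HSD17B1* cDNA, which encodes an enzyme converting estrone to the more potent estradiol, under a CMV-enhanced chicken beta actin promoter that is active in most cell types. The WT mice lack the transgene. The transgenic females do not cycle, whereas the study's histological WT uteri were taken at random phases of the cycle, and the labels give no cycle phase, litter or batch for the sequenced mice. The mouse annotation does not count the human transgene, so its level could not be used to check the genotypes. The mice are called TG1 to TG5 and WT1 to WT5 here, numbers that only name them and pair none of them.

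Planar polarity aligns the cells of a sheet along the plane of the tissue. In its core pathway the atypical cadherin Celsr bridges neighbouring cells, with Vangl and Prickle on one side of the junction and Frizzled and Dishevelled on the other, and in the female reproductive tract the pathway is known for its part in the folding of oviduct epithelium and the formation of uterine glands. Apicobasal polarity separates the luminal face of an epithelial cell from its base, with the Crumbs and Par complexes acting on the apical side and the Scribble complex of Scrib, Dlg and Lgl acting on the basolateral side.

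Promoters of the 2 called genes are shown so that the letters at their annotated starts can be read, and which start is used in the uterus was not measured. RefSeq promoters of the build GRCm38.p6, covering 250 bases before to 50 bases after a gene's start, were found for 6 of the 10 genes, namely *Celsr2*, *Vangl2*, *Prickle1*, *Llgl1*, *Pard3* and *Crb3*. The first promoter of *Crb3* is at chr17:57061951-57062250 on the plus strand and the first promoter of *Prickle1* is at chr15:93595853-93596152 on the minus strand. The *Crb3* gene of the count table begins further upstream, at position 57059105, and a second RefSeq promoter of *Crb3*, at chr17:57061981-57062280, overlaps the first. Capitals mark the letters CAGGTG on either strand, an E-box of the kind bound by the Snail and Zeb repressors of epithelial genes.
Crb3: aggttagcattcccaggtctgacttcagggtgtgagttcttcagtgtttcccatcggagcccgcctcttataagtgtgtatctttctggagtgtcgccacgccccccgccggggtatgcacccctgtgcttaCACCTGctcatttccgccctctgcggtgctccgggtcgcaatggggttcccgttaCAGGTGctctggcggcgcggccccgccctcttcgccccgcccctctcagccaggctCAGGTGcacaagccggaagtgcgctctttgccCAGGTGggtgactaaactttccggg
Prickle1: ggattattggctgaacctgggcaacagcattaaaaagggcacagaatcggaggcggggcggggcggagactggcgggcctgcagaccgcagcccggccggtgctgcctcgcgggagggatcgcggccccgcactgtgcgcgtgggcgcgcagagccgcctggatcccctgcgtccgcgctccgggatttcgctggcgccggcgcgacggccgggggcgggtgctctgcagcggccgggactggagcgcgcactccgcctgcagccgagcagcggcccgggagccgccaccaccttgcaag
The *Crb3* promoter held the E-box letters 4 times, at 118, 63 and 7 bases before the start and 25 bases after it. At least 1 such E-box was present in 20.2% of the 32851 RefSeq promoters, and at least 4 were present in 0.0548% of them. The limit of 4 was taken from the count in *Crb3* itself. The second *Crb3* promoter, which overlaps the first, also held 4, and both are counted in that share. The first *Prickle1* promoter held 0 E-boxes, and its second promoter, at chr15:93519471-93519770, held 1. Among the genes not called in edgeR, *Celsr2* held 2, *Vangl2* 1 and *Llgl1* 0, and *Pard3* held 0 in its first and 3 in its second promoter. The GC box GGGCGG, searched on both strands, whose letters can share a base with the edge of an E-box, was present 3 times in each of the printed promoters and at least once in 35.7% of all promoters. The consensus estrogen response element, a palindrome with 3 free bases in its middle, was in none of the promoter windows of the 6 genes, and in 0.07% of all promoters. Such matches describe the letters of these windows and do not show that a factor binds there.

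Levels are given as FPKM, the deposited fragments per kilobase of gene, scaled in each mouse by its size factor, which can be compared between genes. In WT uterus the mean FPKM ran from 16.6 for *Llgl1* through 15.9 for *Prickle1*, 14.7 for *Scrib*, 12.4 for *Crb3*, 10.1 for *Llgl2*, 5.98 for *Celsr2*, 4.44 for *Vangl1*, 4.08 for *Celsr1* and 4.06 for *Pard3* to 3.82 for *Vangl2*. Of the 9 steps between neighbours in this order, the step from *Llgl2* to *Celsr2* went the same way in 5 of 5 WT mice, with a mean difference of 0.98 ± 0.65 (SD, n = 5) in log2 FPKM. At the other 8 steps, 2 to 4 of 5 mice followed the order of the means, so these neighbours did not differ in every mouse. The counts behind the levels lay between 221 and 3777 per gene and mouse, out of totals of 16544864 to 19451715 counts in the HSD17B1TG mice and 14817228 to 23271988 in the WT mice.

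**Figure D1:**
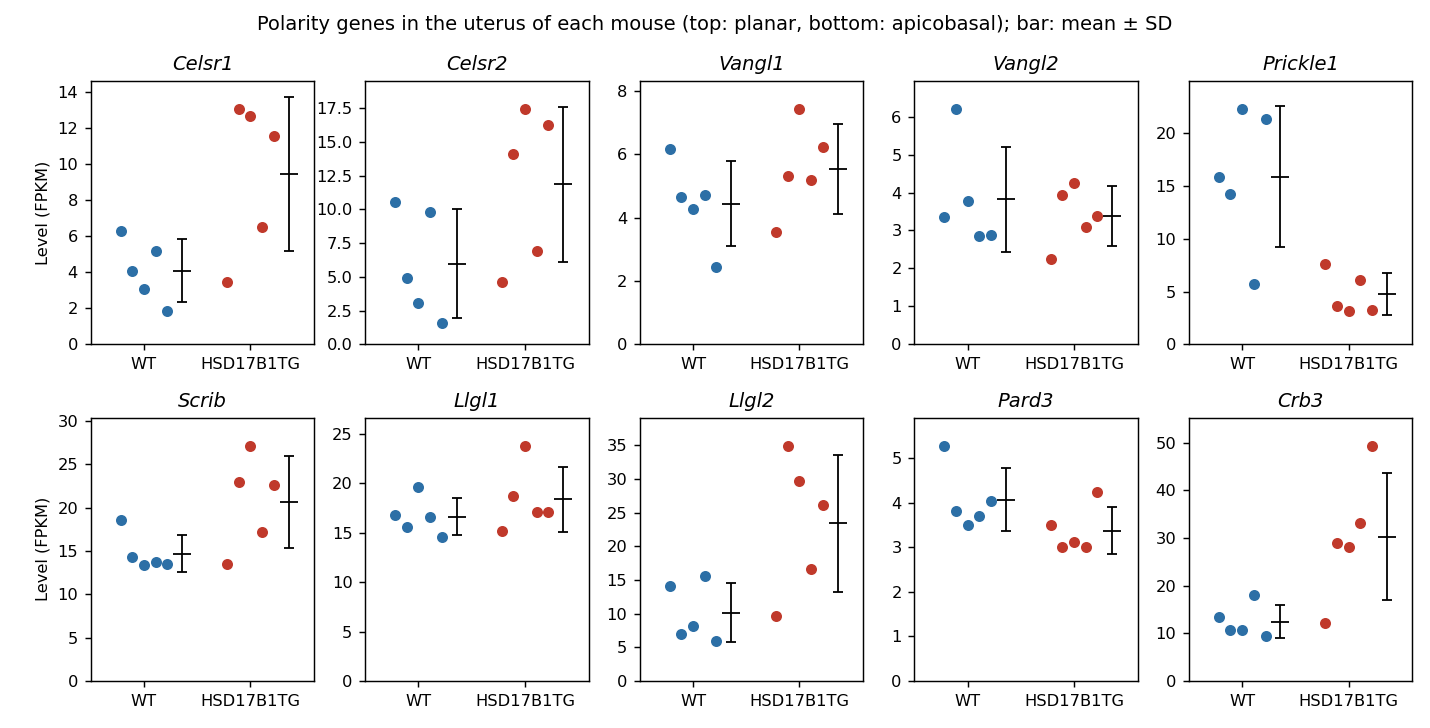
FPKM (y axis, linear from 0) of the 10 polarity genes, with 1 point per mouse for WT (blue, n = 5) and HSD17B1TG (red, n = 5) in the order of their numbers and a bar for the mean ± SD. The HSD17B1TG levels of *Crb3* reached 49.3 FPKM while TG1, the leftmost red point, was at 12.1, and the *Prickle1* levels of the HSD17B1TG mice lay at or under 7.58 FPKM.

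The Crumbs protein *Crb3* (ENSMUSG00000044279, chr17:57059105-57065918, plus strand), a small transmembrane protein of the apical membrane and tight junction region, was the only one of the 10 genes called up in edgeR. Its level was 12.1 FPKM in TG1, 28.9 in TG2, 28.1 in TG3, 33.0 in TG4 and 49.3 in TG5, against 13.5 in WT1, 10.6 in WT2, 10.7 in WT3, 18.0 in WT4 and 9.43 in WT5. TG2 to TG5 were each above every WT mouse, whereas TG1 lay within the WT range, so the groups overlapped. As the RNA is that of whole uterus, a change in the number of cells of a type and a change in the RNA per cell cannot be told apart. The fold change was 2.43, with a log2 fold change of 1.28 ± 0.32 (SE) and an adjusted p of 0.0447 in edgeR's quasi-likelihood test with Benjamini-Hochberg adjustment. When 1 mouse at a time was left out, the adjusted p in edgeR ranged from 0.0124 to 0.111 and was under 0.05 in 2 of 10 fits, those without TG1 or without WT4. The exons of *Crb3* overlap those of *Dennd1c* on the other strand, which had 82 to 218 counts, and the strand setting of the counting is not given in the sources used here, so reads of the overlap cannot be told apart.

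Among the genes of the Scribble module, *Llgl2* had a difference of similar size and *Scrib* and *Llgl1* smaller ones. *Llgl2* (ENSMUSG00000020782, chr11:115824049-115855780, plus strand), the Lgl protein found mainly in epithelia, was at 9.60 FPKM in TG1, 34.9 in TG2, 29.6 in TG3, 16.6 in TG4 and 26.2 in TG5, and at 14.1, 6.91, 8.17, 15.6 and 5.97 FPKM in WT1 to WT5. TG2 to TG5 were again each above every WT mouse and TG1 was within the WT range. The log2 fold change was 1.21 ± 0.37 (SE) with an adjusted p of 0.0752 in edgeR, which did not pass the threshold of 0.05, whereas the adjusted p was 0.0240 in DESeq2 and 0.0137 in limma voom with quality weights. *Llgl2* and *Celsr1* are also among genes that the study singled out from these same samples, so that their direction is not independent evidence.

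*Scrib* (ENSMUSG00000022568, chr15:76047158-76069784, minus strand), the scaffold protein of the module, was at 13.4, 22.9, 27.1, 17.2 and 22.6 FPKM in TG1 to TG5. The WT mice were at 18.5 FPKM in WT1 and at 14.3, 13.4, 13.8 and 13.5 in WT2 to WT5. WT1 thus lay above TG1 and TG4, and the log2 fold change of 0.49 ± 0.19 (SE) had an adjusted p of 0.133 in edgeR and 0.126 in DESeq2. The adjusted p of *Scrib* was under 0.05 in limma voom, at 0.0402, and in edgeR without TG1, at 0.0367, or without both TG1 and WT4, at 0.0432, with a fold change under 2 in each. *Llgl1* (ENSMUSG00000020536, chr11:60699723-60714186, plus strand), the more broadly expressed Lgl protein, spanned 15.2 to 23.8 FPKM with a median of 17.2 in the HSD17B1TG mice and 14.6 to 19.6 FPKM with a median of 16.6 in the WT mice. Its groups overlapped over most of their range, with a log2 fold change of 0.14 ± 0.14 (SE) and an adjusted p of 0.568 in edgeR. Its exons overlap those of *Flii* on the other strand, which had 1664 to 3363 counts.

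*Pard3* (ENSMUSG00000025812, chr8:127063893-127612286, plus strand), the scaffold of the Par complex, ranged narrowly in both groups, from 3.004 to 4.23 FPKM in the HSD17B1TG mice and from 3.49 to 5.27 FPKM in the WT mice. Its log2 fold change was -0.27 ± 0.15 (SE) with an adjusted p of 0.268 in edgeR, and the groups overlapped.

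In the planar pathway, *Prickle1* (ENSMUSG00000036158, chr15:93499114-93595891, minus strand), which encodes a cytoplasmic protein that binds Vangl, was the only one of the 10 genes called down in edgeR. Its level was 7.58 FPKM in TG1, 3.62 in TG2, 3.14 in TG3, 6.07 in TG4 and 3.27 in TG5, against 15.9 in WT1, 14.2 in WT2, 22.3 in WT3, 5.68 in WT4 and 21.4 in WT5. WT4 was below TG1 and TG4, and the other 4 WT mice were above every HSD17B1TG mouse. The log2 fold change was -1.75 ± 0.38 (SE), a 3.37-fold lower level, with an adjusted p of 0.0322 in edgeR. With 1 mouse left out at a time, the adjusted p in edgeR ranged from 0.00523 to 0.0819 and was under 0.05 in 3 of 10 fits, those without TG1, TG3 or WT4, while the log2 fold change stayed between -1.99 and -1.63.

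The Celsr cadherins, which hold the planar complexes of adjacent cells together, had higher means in HSD17B1TG but no call in edgeR. *Celsr1* (ENSMUSG00000016028, chr15:85898929-86033777, minus strand) was at 3.46, 13.1, 12.7, 6.51 and 11.6 FPKM in TG1 to TG5 and at 6.27, 4.06, 3.08, 5.17 and 1.82 FPKM in WT1 to WT5. TG2 to TG5 were above every WT mouse, TG4 narrowly, and TG1 was below WT1, WT2 and WT4. The log2 fold change was 1.21 ± 0.40 (SE) with an adjusted p of 0.0897 in edgeR, against 0.0343 in DESeq2 and 0.0247 in limma voom. *Celsr2* (ENSMUSG00000068740, chr3:108390851-108415552, minus strand) was at 4.61, 14.1, 17.4, 6.91 and 16.3 FPKM in TG1 to TG5 and at 10.6, 4.89, 3.06, 9.80 and 1.59 FPKM in WT1 to WT5. Here 2 HSD17B1TG mice, TG1 and TG4, were below both WT1 and WT4, and the log2 fold change of 0.99 ± 0.53 (SE) had an adjusted p of 0.262 in edgeR.

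The Vangl proteins, membrane proteins that recruit Prickle, gave no call in edgeR, DESeq2 or limma voom. *Vangl1* (ENSMUSG00000027860, chr3:102153583-102204693, minus strand) was at 3.55, 5.32, 7.43, 5.18 and 6.23 FPKM in TG1 to TG5 and at 6.17, 4.65, 4.26, 4.70 and 2.44 FPKM in WT1 to WT5. The log2 fold change was 0.31 ± 0.25 (SE) with an adjusted p of 0.459 in edgeR. For *Vangl2* (ENSMUSG00000026556, chr1:172000960-172028444, minus strand) the levels were 2.24, 3.94, 4.26, 3.10 and 3.39 FPKM in TG1 to TG5 and 3.36, 6.20, 3.79, 2.86 and 2.89 FPKM in WT1 to WT5. The groups overlapped for both genes, and WT2 held the highest *Vangl2* level of the 10 mice. The *Vangl2* log2 fold change of -0.18 ± 0.25 (SE) had an adjusted p of 0.694 in edgeR and was 0.043 without WT2.

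A gene was called when its adjusted p was under 0.05, its fold change over 2 and its mean FPKM over 1 in either group. By this rule 1 of 10 polarity genes was called up and 1 of 10 called down in edgeR, against 2.16% and 2.08% of all genes tested. Past an adjusted p of 0.05 were 2 of 10 genes, against 6.16% of all genes, and past an unadjusted p of 0.05 were 5 of 10, against 26.1% of all genes, 14.7% with higher and 11.4% with lower levels in HSD17B1TG. These 5 were *Celsr1*, *Scrib*, *Llgl2* and *Crb3*, with higher levels in HSD17B1TG, and *Prickle1*, with a lower level. The log2 fold change was above 0 for 7 and below 0 for 3 of the 10 genes, with a median of 0.40, whereas 8525 of all genes tested had higher and 8468 lower levels, with a median of 0.0021. None of the 10 genes had groups that did not overlap, a pattern that 4.04% of all genes showed with higher and 2.65% with lower levels in HSD17B1TG.

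With DESeq2, *Crb3*, *Llgl2* and *Celsr1* were called up and *Prickle1* down, where 4.48% of the 20580 genes with an adjusted p in DESeq2 were called up and 3.28% down. The same 4 genes were called with limma voom, where the shares of all genes were 6.37% up and 3.91% down. They were also called in edgeR without TG1, where 4.42% of all genes were called up and 3.33% down. With both TG1 and WT4 left out, a choice made after the data were seen, the same 4 genes were called, against 6.70% of all genes called up and 5.16% called down. In contrast, 0 of the 10 genes passed an adjusted p of 0.05 in edgeR when any 1 of TG2, TG4, TG5, WT1, WT2, WT3 or WT5 was left out. In the fits with 1 mouse left out, the number of all genes called up ranged from 38 to 888 and the number called down from 27 to 666.

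**Figure D2:**
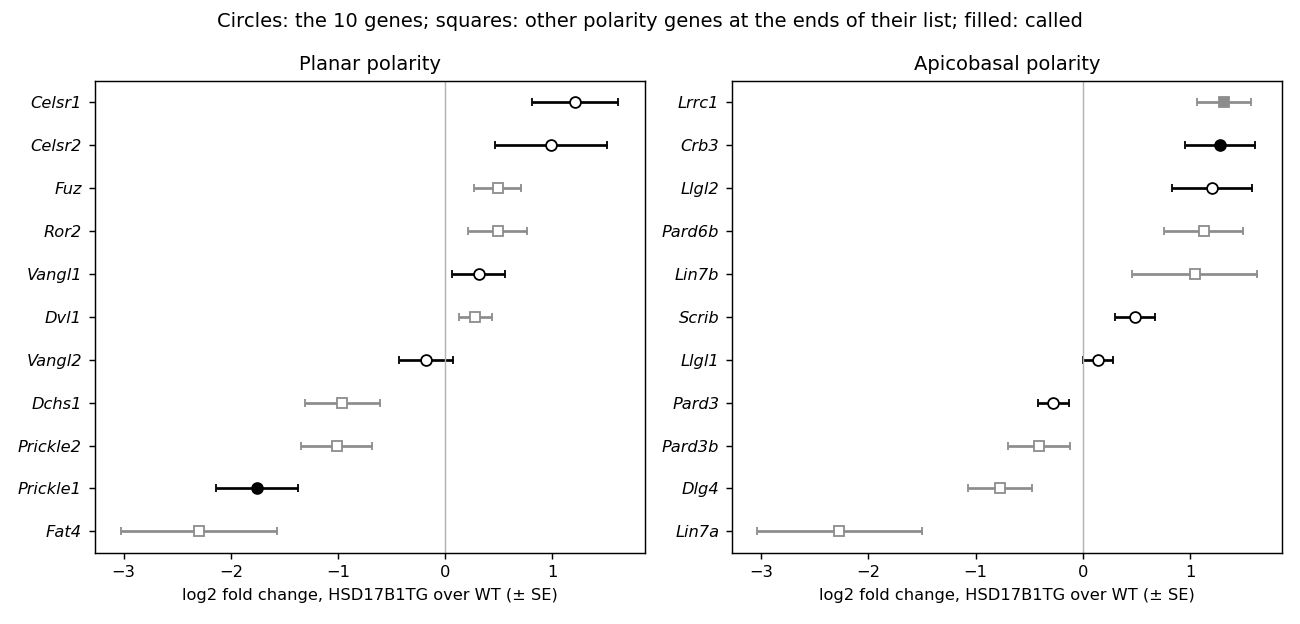
Log2 fold change (x axis, HSD17B1TG over WT, edgeR, error bars ± SE) of the 10 polarity genes (black circles) and of other polarity genes at the ends of their lists (grey squares), filled where the gene was called. *Crb3* and *Lrrc1* are filled on the right of 0 and *Prickle1* on the left, at -1.75.

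Paralogue ratios within a library do not depend on how the libraries are scaled. The ratio of *Llgl2* to *Llgl1* in FPKM was 0.632, 1.87, 1.25, 0.970 and 1.53 in TG1 to TG5 and 0.840, 0.442, 0.417, 0.940 and 0.409 in WT1 to WT5. Its mean was 1.25 ± 0.480 (SD, n = 5) in the transgenic mice against 0.610 ± 0.259 in WT. The log2 difference, taken between the group means of the log2 count ratio per mouse, was 1.04 (two-sided exact permutation test, p = 0.0397, and 0.119 adjusted over the 3 ratios). TG2 to TG5 were above every WT mouse, and *Llgl2* exceeded *Llgl1* in 3 HSD17B1TG mice and in 0 WT mice. As exons of *Llgl1* overlap those of *Flii* on the other strand, the size of the ratio is uncertain. With 1 mouse left out at a time, the exact permutation p rose to at most 0.0714.

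The ratio of *Celsr1* to *Celsr2* was 0.812 ± 0.113 (SD, n = 5) in HSD17B1TG and 0.821 ± 0.263 in WT, with WT values from 0.528 to 1.15. The log2 difference of 0.036 had p = 0.873 in the exact permutation test, also after adjustment. It was taken from the log2 count ratio of each mouse, so its sign can differ from that of the mean FPKM ratios. The ratio of *Vangl1* to *Vangl2* was 1.64 ± 0.186 in HSD17B1TG and 1.24 ± 0.481 in WT, with a log2 difference of 0.48 and an exact permutation p of 0.119, or 0.179 adjusted. It lay between 1.35 and 1.84 in the HSD17B1TG mice, while WT1 and WT4 were within that range and WT2, WT3 and WT5 below it.

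**Figure D3:**
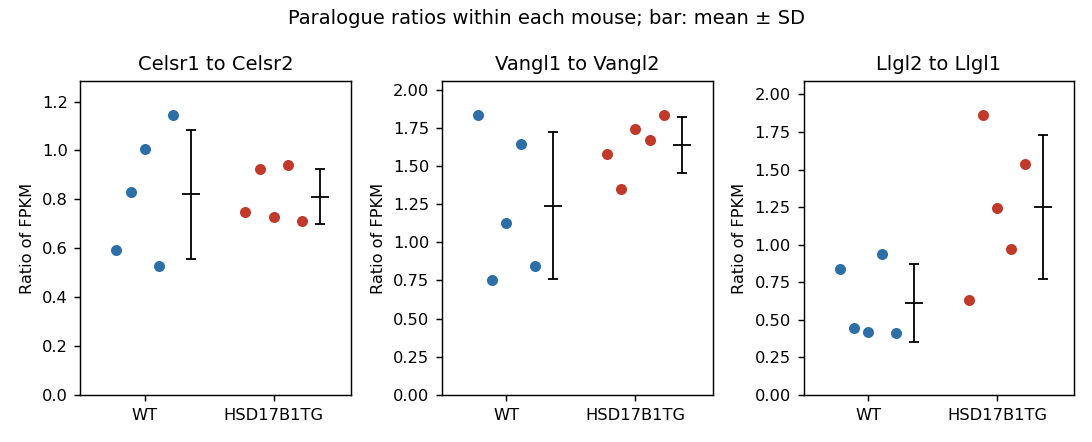
Ratio of FPKM within each mouse (y axis, linear from 0) for 3 paralogue pairs in WT (blue, n = 5) and HSD17B1TG (red, n = 5), with a bar for the mean ± SD. For *Llgl2* to *Llgl1* 4 HSD17B1TG mice lie above the highest WT mouse at 0.940, and for *Celsr1* to *Celsr2* the means are 0.812 and 0.821.

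Other genes of the same pathways were counted from a list of 19 planar and 24 apicobasal polarity genes, of which 17 and 22 were tested. Of the planar genes 0 were called in edgeR, with 1 of 17 higher and 6 of 17 lower at an unadjusted p under 0.05, where all genes had 14.7% higher and 11.4% lower, and in all 6 were higher and 11 lower in the transgenic mice. Their median log2 fold change was -0.32. The lowest were the giant cadherins *Fat4* (log2 fold change -2.30, adjusted p 0.0795 in edgeR) and *Dchs1* (-0.96, adjusted p 0.111), which bind each other between cells, and *Prickle2* (-1.01, adjusted p 0.0869), the paralogue of *Prickle1*. At the other end were the ciliogenesis effector *Fuz* (0.49, adjusted p 0.183), the Wnt receptor *Ror2* (0.49, adjusted p 0.286) and the Dishevelled gene *Dvl1* (0.28, adjusted p 0.280). Thus 0 of these 6 genes passed the test in edgeR.

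Of the 22 apicobasal genes tested, 17 were higher and 5 lower in the transgenic mice, of which 9 and 2 had an unadjusted p under 0.05, against 14.7% and 11.4% of all genes. The median of the log2 fold changes was 0.35. *Lrrc1*, a relative of Scrib, was the 1 gene called in edgeR, with a level of 6.57 ± 1.97 FPKM (SD, n = 5) in HSD17B1TG and 2.63 ± 0.817 FPKM in WT. It is 1 of 22 genes, where edgeR called 2.16% of all genes tested up and 2.08% down. Of all the other polarity genes, DESeq2 and limma voom each called *Lrrc1* and *Pard6b* up, 2 of 43 genes in DESeq2 (4.48% of all genes) and 2 of 39 in limma voom (6.37%). They called 3 genes down, *Fat4*, *Lin7a* and *Prickle2* in DESeq2 (3.28% of all genes) and *Lin7a*, *Prickle2* and *Dchs1* in limma voom (3.91%). The *Lrrc1* groups did not overlap, a pattern that 4.04% of all genes tested showed with higher levels in HSD17B1TG. The log2 fold change of *Lrrc1* was 1.32 ± 0.25 (SE) with an adjusted p of 0.0232 in edgeR. That adjusted p was over 0.05, at most 0.0666, in 7 of 10 fits with 1 mouse left out, those without TG2, TG4, TG5, WT1, WT2, WT3 or WT5. The Par complex gene *Pard6b* (1.13, adjusted p 0.0861) and the Lin7 scaffold gene *Lin7b* (1.04, adjusted p 0.288) had the next highest log2 fold changes among genes with a mean FPKM over 1, without passing the test in edgeR. *Lin7a* (-2.27, adjusted p 0.0942), *Dlg4* (-0.77, adjusted p 0.129) and *Pard3b* (-0.40, adjusted p 0.411) had the lowest among these.

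Markers of the cell types of the uterus were measured in the same libraries. The epithelial markers *Epcam*, *Cdh1* and *Krt8* were present in every mouse, with log2 fold changes of 1.24, 1.20 and 1.24 and adjusted p of 0.117, 0.103 and 0.146 in edgeR. Of 16 epithelial markers 15 were higher in HSD17B1TG, their summed level ranged from 791 to 3719 FPKM in HSD17B1TG and from 556 to 1869 FPKM in WT, and their mean log2 CPM, the count scaled to the TMM-adjusted library total, differed by 1.23 (exact permutation p = 0.0476, 0.127 adjusted over 8 lists, and unadjusted p over 0.05, at most 0.103, in 7 of 10 repeats with 1 mouse left out). Of 14 stromal markers 12 were lower and 6 were called down, with sums of 831 to 3001 FPKM against 2693 to 3176 FPKM and a mean log2 CPM difference of -1.12 (exact permutation p = 0.00794, the smallest that 5 against 5 mice can give, and 0.0317 adjusted). The corresponding differences were 0.84 for smooth muscle, -0.79 for endothelium, -0.31 for leucocytes, 0.15 for ciliated and oviduct cells, and 1.48 for mesothelium, with adjusted exact permutation p of 0.345, 0.178, 0.243, 0.421 and 0.127. Adipocyte markers differed by 1.43 (0.0317 adjusted) from 2 of 8 markers that passed the filter on low counts, *Pnpla2* and *Lipe*. Of those under the filter, *Plin1*, *Lep*, *Retn* and *Cidec* had a median of 0 FPKM in HSD17B1TG and of 0 to 0.079 in WT. For *Adipoq* and *Cfd* the medians were 0.14 and 0.35 FPKM in HSD17B1TG and 0 and 0.067 in WT. None of the listed markers was at 0 in all mice, and 1 marker of the ciliated and oviduct list had no entry in the count table.

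TG1, the HSD17B1TG mouse with the lowest *Celsr1*, *Llgl2* and *Crb3*, had the lowest sum of epithelial markers of its group, 791 FPKM, and the highest sum of smooth muscle markers of the 10 mice, 7864 FPKM. WT4, the WT mouse with the highest *Llgl2* and *Crb3* and the lowest *Prickle1*, had the highest sum of epithelial markers of its group, 1869 FPKM, and the highest of smooth muscle markers, 6123 FPKM. The part that the cell make-up of the tissue has in the differences was not tested.

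**Figure D4:**
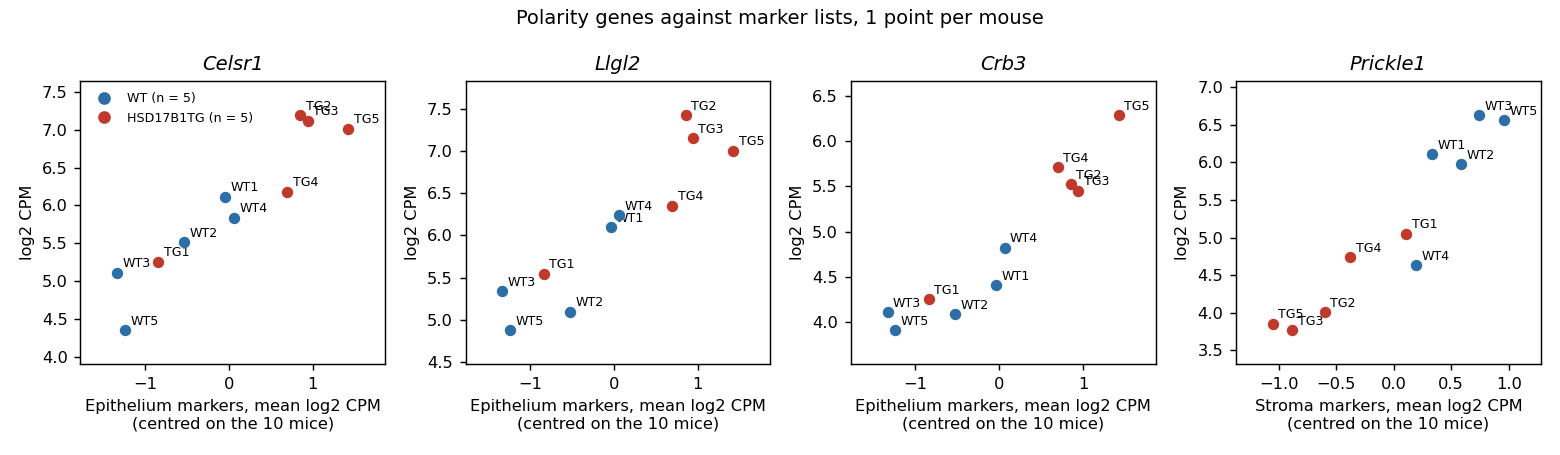
Log2 CPM of *Celsr1*, *Llgl2* and *Crb3* (y axes) against the mean log2 CPM of 16 epithelial markers, and of *Prickle1* against that of 14 stromal markers, both centred on the 10 mice, with 1 point per mouse (WT blue, HSD17B1TG red). TG1 has an epithelial mean of -0.84, among the WT mice, and WT4 has the lowest stromal mean of the WT mice, 0.20.

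When the level of each gene was expressed against the mean of the epithelial markers in the same mouse, 4 genes had differences near 0 and 6 had larger negative ones. The difference in log2 CPM between the groups became -0.066 for *Celsr1*, -0.10 for *Celsr2*, -0.064 for *Llgl2* and -0.054 for *Crb3*, with exact permutation p of 0.754, 0.738, 0.817 and 0.786. For these genes 0 HSD17B1TG mice were above every WT mouse on this scale, and 2 were below every WT mouse for *Celsr1* and 1 for *Llgl2*. The differences were -0.78 for *Scrib*, -0.90 for *Vangl1*, -1.10 for *Llgl1*, -1.38 for *Vangl2*, -1.50 for *Pard3* and -2.93 for *Prickle1*, with exact permutation p of 0.0794, 0.0317, 0.0556, 0.0238, 0.0317 and 0.0159. The epithelial mean itself differed by 1.23, so a gene with no difference in log2 CPM lies below 0 on this scale. Before the subtraction *Llgl1* and *Vangl2* differed by 0.13 and -0.15. The p-values on this scale thus carry the difference of the epithelial markers as well as that of the gene. These 10 p-values were not adjusted, and with 1 mouse left out at a time the p was over 0.05 in 5 of 10 fits for *Vangl1*, 4 for *Pard3* and 0 for *Vangl2* and *Prickle1*. For each of *Prickle1*, *Vangl1*, *Vangl2*, *Llgl1* and *Pard3* 4 of 5 HSD17B1TG mice were below every WT mouse, and for *Scrib* 3.

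Against the mean of the 14 stromal markers, a comparison added after the data were seen, *Prickle1* had a difference of -0.57 in log2 CPM (exact permutation p = 0.0794) and the other 9 genes had positive differences, from 0.85 for *Pard3* to 2.30 for *Crb3*. The exact permutation p of these was 0.0714 for *Vangl2* and 0.0159 to 0.0317 for the other 8, unadjusted. The stromal mean itself differed by -1.12, so a gene with no difference in log2 CPM lies above 0 on this scale. Before the subtraction *Llgl1* and *Pard3* differed by 0.13 and -0.27. These p-values thus carry the difference of the stromal markers as well as that of the gene. No HSD17B1TG mouse was below every WT mouse for *Prickle1* on this scale. For *Crb3*, *Llgl2*, *Celsr1*, *Celsr2*, *Vangl1*, *Scrib* and *Llgl1* 4 of 5 HSD17B1TG mice were above every WT mouse.

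**Figure D5:**
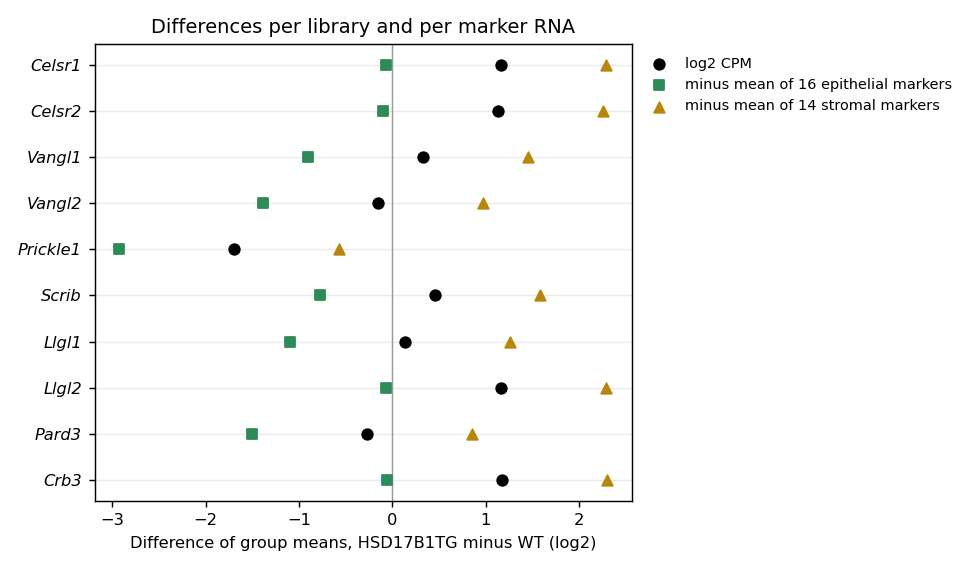
Difference of the group means (x axis, HSD17B1TG minus WT, log2) of the 10 polarity genes in log2 CPM (black circles), and after subtracting the mean log2 CPM of 16 epithelial (green squares) or 14 stromal markers (yellow triangles) in each mouse. The green squares of *Celsr1*, *Celsr2*, *Llgl2* and *Crb3* lie between -0.10 and -0.054, and that of *Prickle1* lies at -2.93.

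The protein-coding genes whose pattern over the 10 mice was most like each polarity gene were found by the smallest root mean square difference of centred log2 CPM among 12668 candidates. *Crb3* was closest to the homeobox gene *Dlx6*, at 0.176, and to the interferon-inducible GTPase gene *Irgm1*, at 0.181. For *Llgl2* they were the thyrotropin receptor gene *Tshr*, at 0.203, and the lipid transporter gene *Abca3*, at 0.209. *Celsr1* was nearest to the kinase gene *Cdk18*, at 0.218, and the transcription factor gene *Pax2*, at 0.236, and *Celsr2* to *Crybg1*, at 0.233, and again *Cdk18*, at 0.244.

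*Prickle1* had as its nearest genes *Cd93*, a receptor of endothelial cells, at 0.219, and *Igfbp7*, a secreted binding protein abundant in vessels and stroma, at 0.243. Their log2 fold changes were -1.68 and -1.61, and since they were chosen for their likeness to *Prickle1* over the same mice, a lower level in HSD17B1TG was fixed by the choice. The other genes had nearest patterns at 0.0908 to 0.181, *Gipc1* and *Lasp1* for *Scrib*, *Lrrc47* and *Nckipsd* for *Llgl1*, *Sipa1l3* and *H2afy* for *Vangl1*, *Id2* and *Rpl24* for *Vangl2* and *Ddx50* and *Txnrd3* for *Pard3*.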

How the data were processed

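Whole uteri of 5 HSD17B1TG and 5 WT mice were sequenced, and the labelled genotype set the groups. The authors mapped the reads with HISAT2 2.0.5, per the labels, to GRCm38. They deposited a table with the raw count of each gene per mouse, a signal obtained by dividing the counts of each mouse by a DESeq2 size factor, and FPKM. The deposited log2 fold changes and p-values are the authors' own comparison and were not used, nor were the other deposited files, which hold nothing else. Neither the counting program nor how it treated strand is given in the sources used here, so reads shared by overlapping or antisense genes are uncertain.

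Differences in counts were tested by edgeR 4.0.16 under R 4.3.3 (filterByExpr, TMM, quasi-likelihood test, Benjamini-Hochberg adjustment over 16993 genes), after tests on simulated data. The SE is the log2 fold change divided by the square root of F. Log2 CPM used a prior count of 2. Ratios had 0.5 added to each count. Exact permutation tests covered every assignment of the 10 mice and were two-sided. The p-values measure the spread between mice within a genotype. Total counts of 14817228 to 23271988 per mouse limit precision mostly for low genes. Overlaps of genes were taken from the GENCODE M21 annotation of the same build.

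The genes and gene lists were chosen with earlier results of these data known. Named were all 10 genes, the 3 highest and 3 lowest log2 fold changes among the other planar and among the other apicobasal polarity genes with a mean FPKM over 1, the 2 protein-coding genes with the pattern nearest to each gene, and the first genes of marker lists. Of the 6 marker lists other than epithelium and stroma the first genes were *Acta2* and *Myh11*, *Pecam1* and *Cdh5*, *Ptprc* and *Cd53*, *Foxj1* and *Ovgp1*, *Msln* and *Upk3b*, and *Adipoq* and *Plin1*, and 0 of these were called, with *Foxj1*, *Adipoq* and *Plin1* under the filter on low counts. Other markers of these lists, named after their values were seen, were called up, namely *Laptm5* of the leucocyte list (log2 fold change 1.28, adjusted p 0.0312), in which 8 of 10 markers were lower in HSD17B1TG, and both adipocyte markers tested, *Pnpla2* (1.10, adjusted p 0.0277) and *Lipe* (1.92, adjusted p 0.0234). The first stromal genes were *Pdgfra*, which was called down (log2 fold change -1.99, adjusted p 0.0219), and *Dcn*, which was not. Alternatives were DESeq2 1.42.0, limma 3.58.1 on voom weights or log2 FPKM, other normalizations and filters, and each mouse left out in turn.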

Additional observations from a re-analysis of the deposited data

Results flagged for a closer look

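Within a genotype, 2 values stood apart from the other 4 mice by more than Dixon's 95% limit for 5 values, among 26 groups looked at, and chance alone sets about 1 in 20 such groups apart. The *Vangl2* level of WT2, 6.20 FPKM, lay above the other WT mice by a gap of 0.722 of the group's range. The *Scrib* level of WT1, 18.5 FPKM, lay above the other WT mice by a gap of 0.832 of the range. Without WT1 the log2 fold change of *Scrib* was 0.56 with an adjusted p of 0.130 in edgeR, and without WT2 that of *Vangl2* was 0.043.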

How the results depend on the processing

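*Prickle1* was called down under each of the 9 alternatives other than leaving out 1 mouse, with log2 fold changes of -2.20 to -1.50 and adjusted p of 0.000444 to 0.0408, whereas *Crb3* passed in 6 of these 9 (adjusted p 0.00335 to 0.0676). The fit without both TG1 and WT4, counted among these 9, was chosen after the data were seen. It gave the -2.20 of *Prickle1* and the 0.00335 of *Crb3*. Genes called up among the 10 numbered 3 with DESeq2, with limma voom and with TG1 and WT4 both left out (added after seeing the data), and 0 without a filter on low counts and with limma on log2(FPKM + 1) or log2(FPKM + 0.1). Past an adjusted p of 0.05 were 4 with DESeq2, 5 with limma voom and without TG1 and WT4, and 1 in the latter 3. Of the other polarity genes, 2 were called up and 3 down with DESeq2 (4.48% and 3.28% of all genes) and with limma voom (6.37% and 3.91%). Without TG1 and WT4, 3 of 39 were called up and 5 down, where 6.7% of all genes were called up and 5.16% down. Leaving out 1 mouse at a time gave 0 to 3 of the 10 genes called up, 0 to 1 called down, 0 to 5 past the adjusted p, and 0 to 2 other polarity genes called up and 0 to 3 down. These fits have fewer mice, and the cause of the changes was not tested. The log2 difference of the *Llgl2* to *Llgl1* ratio ranged from 0.87 to 1.26 in these fits, with exact permutation p over 0.05 in 7 of 10 of them, that of *Vangl1* to *Vangl2* from 0.32 to 0.65, past 0.05 in 1, and that of *Celsr1* to *Celsr2* from -0.11 to 0.17, turning to -0.015 without TG2, -0.021 without TG4, -0.066 without WT1 and -0.11 without WT4. Relative to epithelium, leaving out 1 mouse moved the differences near 0 between -0.17 and 0.047 for *Celsr1*, -0.34 and 0.068 for *Celsr2*, -0.19 and 0.066 for *Llgl2* and -0.16 and 0.085 for *Crb3*, with positive values in 2 or 3 fits each, and exact permutation p ranged from 0.0159 to 0.0635 for *Vangl1* and from 0.00794 to 0.0556 for *Pard3*. In the same fits the *Vangl2* log2 fold change ranged from -0.29 to 0.043. Upper quartile scaling moved the median log2 fold change of all genes to -0.08 and changed no call among the 10 genes. No paired analysis was possible because the labels share no replicate number or litter between the genotypes.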

Other observations

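The WT mice spread more widely than the HSD17B1TG mice in the ratio of *Celsr1* to *Celsr2*, where WT4 was lowest at 0.528 and WT5 highest at 1.15, while the 5 HSD17B1TG mice lay between 0.712 and 0.942. The difference in spread was not tested. *Prickle1* was at 5.68 FPKM in WT4 and between 14.2 and 22.3 FPKM in the other 4 WT mice.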
